A study of Mus musculus with 20 samples.

Results

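The genes described here are 35 genes of cholesterol synthesis, its control, uptake, intracellular transport, efflux, storage and turnover. They were chosen by their symbol, and 34 of the 35 were listed by that symbol in both deposited tables, out of 20375 genes in each. Tm7sf2, which encodes a sterol reductase, was the one not listed by symbol. The row that carries the Tm7sf2 gene ID bears the symbol Vps51, which belongs to a neighbouring gene that overlaps it, and in the authors' deposited tables that row stood at 0.01 at 12 weeks and at 0.13 at 5 days after injection (q = 0.493 at 5 days). It is not counted among the 34 genes.

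Cells make cholesterol in a long chain of enzyme steps, from acetyl units through mevalonate and squalene to the finished sterol, and take it up in lipoproteins or pass it on to carriers outside the cell. The adult brain depends on its own synthesis, because plasma lipoproteins do not cross the blood-brain barrier, and most of its cholesterol lies in myelin. When sterol falls in the membrane of the endoplasmic reticulum, the escort protein SCAP carries the transcription factor SREBP-2 to the Golgi, where it is cut free to switch on the genes of synthesis and uptake; when sterol is plentiful, INSIG proteins hold SCAP back. A surplus of oxidised sterol instead activates the liver X receptors, which raise the efflux pumps ABCA1 and ABCG1 and the ubiquitin ligase MYLIP, a brake on lipoprotein receptors.

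RNA was sequenced from 4 groups of 5 samples of medial prefrontal cortex, all from C57BL/6 mice. They were CDS-injected and PBS-injected mice aged 12 weeks (postnatal day 84, 6 weeks after the injection), and CDS-injected and PBS-injected mice at postnatal day 47, 5 days after the injection (5 dpi). All groups had an injection into the prefrontal cortex, PBS being the control. The labels do not spell out CDS, and the series is titled as a model of microglia depletion; they do not say which mice or litters the samples came from, so that p-values reflect the spread among the samples, which may be technical in part. For each gene and time the files hold a q-value and the authors' log2 fold change, CDS over PBS, so no value of a single sample, no expression level and no depth per sample is known. Standard errors (SE) given below are implied by those values. A gene was called higher or lower where its q was under 0.05.

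At 5 dpi the cholesterol genes that were called were all higher in CDS cortex. Of the 34, 7 rose and 0 fell: 6 synthesis enzymes and the sterol carrier Stard4, by 13.8 to 36.8%. Over all genes the authors' deposited table called 2.75% higher and 3.18% lower at that time, 5.92% in all. Among protein-coding genes it was 3.55% in each direction, or 7.09%. At 12 weeks 0 of the 34 were called. The background then was 0.0933% of genes higher and 0.191% in either direction, so that a count of 0 among 34 genes is near the background.

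The promoters of the called synthesis enzymes are shown first. Genes of this pathway are known targets of SREBP-2, and whether it acted on them here was not tested. They are taken from RefSeq on GRCm38.p6 and run 5′ to 3′ on the gene's strand from 250 bases before to 50 bases after the transcription start. Entries were found for 4 of the 6 called enzymes: Hmgcs1 (chr13:119690101-119690400, plus strand), Acat2 (chr17:12960676-12960975, minus strand), Sc5d (chr9:42264251-42264550, minus strand) and Idi1 (chr13:8885356-8885655, plus strand). Fdft1, Sqle and Stard4 are named only. Capitals mark the 9-letter core of a sterol regulatory element, TCACNCCAC, the CCAAT box bound by NF-Y, a known partner of SREBP (ATTGG on the other strand), and the E-box CACGTG. The GC box GGGCGG, bound by SP1, was searched too and is not marked.
Hmgcs1: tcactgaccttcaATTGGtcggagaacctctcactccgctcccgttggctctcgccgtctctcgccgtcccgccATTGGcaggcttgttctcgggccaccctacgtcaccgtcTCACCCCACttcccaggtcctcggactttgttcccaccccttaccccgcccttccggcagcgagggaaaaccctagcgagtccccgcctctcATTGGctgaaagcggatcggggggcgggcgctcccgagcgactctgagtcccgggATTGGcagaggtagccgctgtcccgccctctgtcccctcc
Acat2: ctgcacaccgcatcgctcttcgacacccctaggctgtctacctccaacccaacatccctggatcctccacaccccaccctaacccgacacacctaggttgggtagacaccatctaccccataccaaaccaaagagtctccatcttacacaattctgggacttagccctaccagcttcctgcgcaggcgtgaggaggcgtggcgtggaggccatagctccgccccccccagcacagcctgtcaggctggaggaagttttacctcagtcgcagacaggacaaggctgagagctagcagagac
Sc5d: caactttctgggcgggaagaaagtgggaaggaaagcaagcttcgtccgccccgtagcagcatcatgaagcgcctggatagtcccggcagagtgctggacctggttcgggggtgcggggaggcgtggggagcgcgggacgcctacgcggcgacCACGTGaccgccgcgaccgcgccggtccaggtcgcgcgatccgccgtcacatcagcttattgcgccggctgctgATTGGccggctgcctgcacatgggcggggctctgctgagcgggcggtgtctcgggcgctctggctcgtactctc
Idi1: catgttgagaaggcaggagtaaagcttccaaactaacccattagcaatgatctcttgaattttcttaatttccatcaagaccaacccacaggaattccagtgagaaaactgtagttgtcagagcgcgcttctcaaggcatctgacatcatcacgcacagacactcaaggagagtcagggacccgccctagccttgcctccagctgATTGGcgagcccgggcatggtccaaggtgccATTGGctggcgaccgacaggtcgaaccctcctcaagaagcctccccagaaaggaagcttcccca

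The window of Hmgcs1 held a sterol regulatory element core at -137, counted from the start, with NF-Y boxes on each side of it. That of Idi1 held NF-Y boxes at -45 and -14, and that of Sc5d an E-box at -98 and an NF-Y box at -24. None of these 3 marked motifs was found in the window of Acat2. Each motif was searched on both strands, and in these 4 windows no marked motif overlaps another. Among all 32851 promoter windows of this length, 37.4% held CCAAT, 35.7% the GC box, 7.15% the E-box and 1.24% the sterol regulatory element core. Of 19 windows of synthesis enzymes, 15 (78.9%) held CCAAT, 15 the GC box, 3 the E-box and 1 the core. Of 18 windows of the other genes, 9 (50%) held CCAAT, 13 the GC box, 4 the E-box and 0 the core. For windows of the protein-coding genes measured here, the share was 37.2% for CCAAT and 58.9% for the GC box. By gene, 15 of the 16 synthesis enzymes with an entry had a CCAAT box, Acat2 being the exception. The 19 windows and 16 genes include Tm7sf2, although it was not listed by symbol. With Tm7sf2 left out, 3 of 4 called genes with an entry had a CCAAT box, as did 19 of 23 not called. Sqle, Fdft1 and Stard4 had no entry, so 4 genes are too few to show whether the box separates called genes. These are matches of letters in a short window, and they say nothing of what was bound in this tissue.

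**Figure D1:**
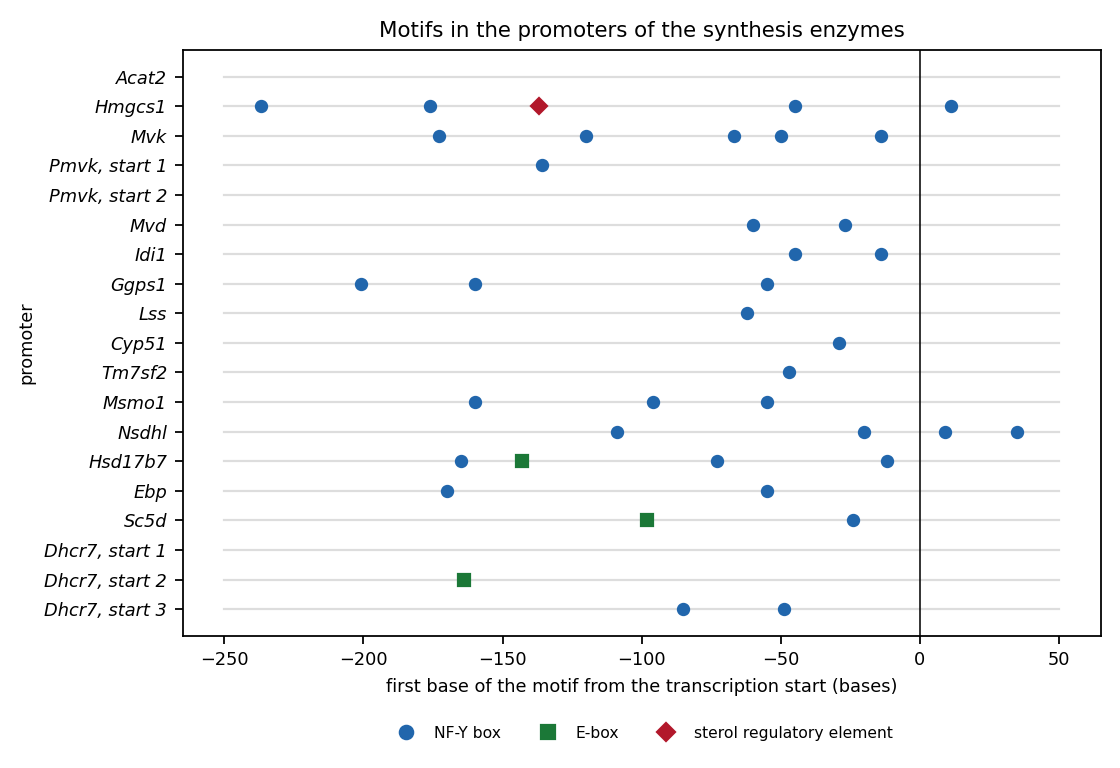
Motifs in RefSeq promoter windows of the synthesis enzymes, by distance of the motif's first base from the transcription start in bases; each grey line is 1 window, and genes with several starts have several lines. NF-Y boxes (CCAAT, 15 of 19 windows, that of Tm7sf2 included) lie mostly before the start. The sterol regulatory element core appears once, in Hmgcs1.

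In the steps from acetyl-CoA to farnesyl diphosphate, the called genes were Acat2, Hmgcs1 and Idi1. Differences between steps were not tested. Acat2, the cytosolic thiolase that joins acetyl units (chromosome 17, 12942890 to 12960747, minus strand; gene positions are on GRCm38), rose by 0.34 on the log2 scale with an implied SE of 0.08, or 26.5% (q = 0.00112, the authors' deposited table). Hmgcs1, which makes HMG-CoA (chromosome 13, 119690379 to 119708260, plus strand), rose by 0.37 with an implied SE of 0.08, or 29.5% (q = 0.00018, the authors' deposited table). Idi1, which isomerises the first isoprene unit (chromosome 13, 8885501 to 8892451, plus strand), rose by 0.33 (implied SE 0.10, q = 0.0342 in the authors' deposited table) and was the called enzyme nearest the threshold. The kinases and the decarboxylase between them were not called: in the authors' deposited table Mvk stood at 0.26 (95% interval 0.04 to 0.49, q = 0.175), Pmvk at 0.10 (-0.03 to 0.23) and Mvd at 0.25 (-0.01 to 0.51). Fdps, which makes farnesyl diphosphate, stood at 0.11 with a 95% interval of -0.15 to 0.38 in the authors' deposited table (q = 0.719).

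Ggps1 makes geranylgeranyl diphosphate, used to anchor small GTPases to membranes, on a branch that leads away from cholesterol. It was the one synthesis gene with a value below 0, at -0.16 with a 95% interval of -0.38 to 0.05 in the authors' deposited table (q = 0.428). Of the 8 genes of this first stretch and its branch, 3 rose and 5 were not called, and the median was 0.26 in the authors' deposited table. Over all genes 2.75% were called higher at 5 dpi.

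The smallest q among the 34 genes was in the committed sterol steps. Sqle encodes squalene epoxidase, a rate-limiting enzyme of the later pathway (chromosome 15, 59315077 to 59331192, plus strand). It rose by 0.44 with an implied SE of 0.07, or 36% (95% interval 0.30 to 0.58, q = 1.36e-07, the authors' deposited table), and ranked 81 among the 20375 genes by q. Fdft1, squalene synthase, which takes the first step committed to sterols (chromosome 14, 63145150 to 63179578, minus strand), rose by 0.36 with an implied SE of 0.07, or 28.4% (q = 2.28e-05, rank 141, the authors' deposited table). Sc5d, a desaturase near the end of the chain (chromosome 9, 42251595 to 42264256, minus strand), rose by 0.19 with an implied SE of 0.06, or 13.8% (q = 0.0263, the authors' deposited table). It was the smallest of the called changes and had the smallest implied SE of the 34 genes.

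The enzymes between squalene epoxidase and the desaturase were not called, although all 10 measured genes from squalene onward had values above 0, and 0.20 was the median in the authors' deposited table. Lss, which closes the rings to lanosterol, lay nearest to the threshold among the genes not called, at 0.20 with a 95% interval of 0.06 to 0.33 (q = 0.0742, the authors' deposited table). Nsdhl, which removes a methyl group at carbon 4, had the highest value of all 34 genes, at 0.46, but an implied SE of 0.20 (95% interval 0.07 to 0.85, q = 0.168, the authors' deposited table). Its partners in that step, Msmo1 and Hsd17b7, stood at 0.20 and 0.19, and the demethylase Cyp51 at 0.11, in the authors' deposited table (q between 0.256 and 0.683). The isomerase Ebp and the last reductase Dhcr7 stood at 0.15 and 0.23 in the authors' deposited table (q = 0.559 and 0.435).

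Taking both stretches, 6 of 18 synthesis enzymes rose and 0 fell, and 17 of 18 had a value above 0. The authors' deposited table called 2.75% of all genes higher and 3.18% lower at 5 dpi. The median of the 18 was 0.21 in the authors' deposited table. Over all genes, 9162 of 20375 had a value above 0 and the median was -0.02; over the 12588 genes with an implied SE no larger than the largest among the 34, the median was 0.00. The 6 enzymes called had a median of 0.35, against 0.19 for the 12 not called. The calls rest on the same values, so a higher median among called enzymes was partly built in. An unadjusted p under 0.05, recovered from q, was found for 10 of the 18 enzymes and for 3883 of all 20375 genes.

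**Figure D2:**
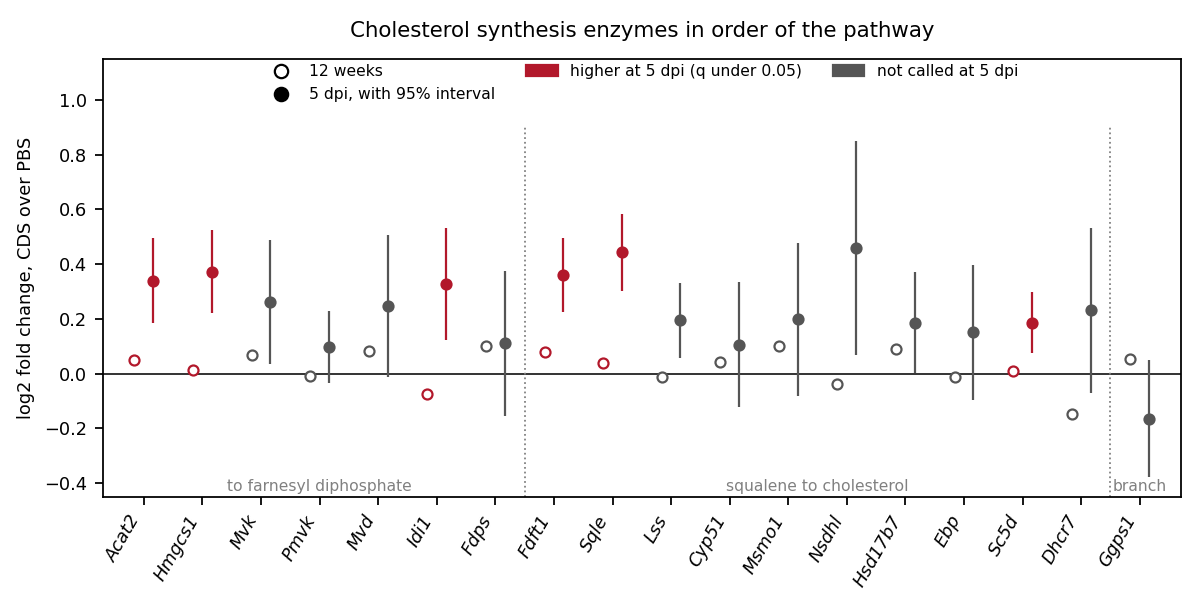
Log2 fold change of CDS over PBS for the synthesis enzymes in pathway order, with open points for 12 weeks and filled points for 5 dpi; bars are 95% intervals from the implied SE at 5 dpi, and red marks genes called at 5 dpi. The 6 called enzymes lie between 0.19 and 0.44 at 5 dpi, and the same enzymes lie between -0.07 and 0.08 at 12 weeks.

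The implied SE differed among these genes. The last gene called at 5 dpi had a p of 0.00296, so a gene passed when its log2 fold change was at least 2.97 times its implied SE. For Sqle that limit was 0.21 and for Sc5d 0.17, whereas for Nsdhl it was 0.59, for Dhcr7 0.46 and for Msmo1 0.42. A change of the size seen in Sqle could therefore be called in Sqle but not in Nsdhl or Dhcr7. The 7 called genes had a median implied SE of 0.08, against 0.12 for the 12 synthesis enzymes not called, and 6 genes not called had values of at least 0.2. An observed rise of the size of that in Hmgcs1 (0.373) would therefore not have been called in Nsdhl, Dhcr7 or Msmo1 at this precision. The same held for Fdps, Mvd and Ebp, whose limits were 0.403, 0.394 and 0.375. That these genes were not called does not show that they differed from Hmgcs1.

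**Figure D3:**
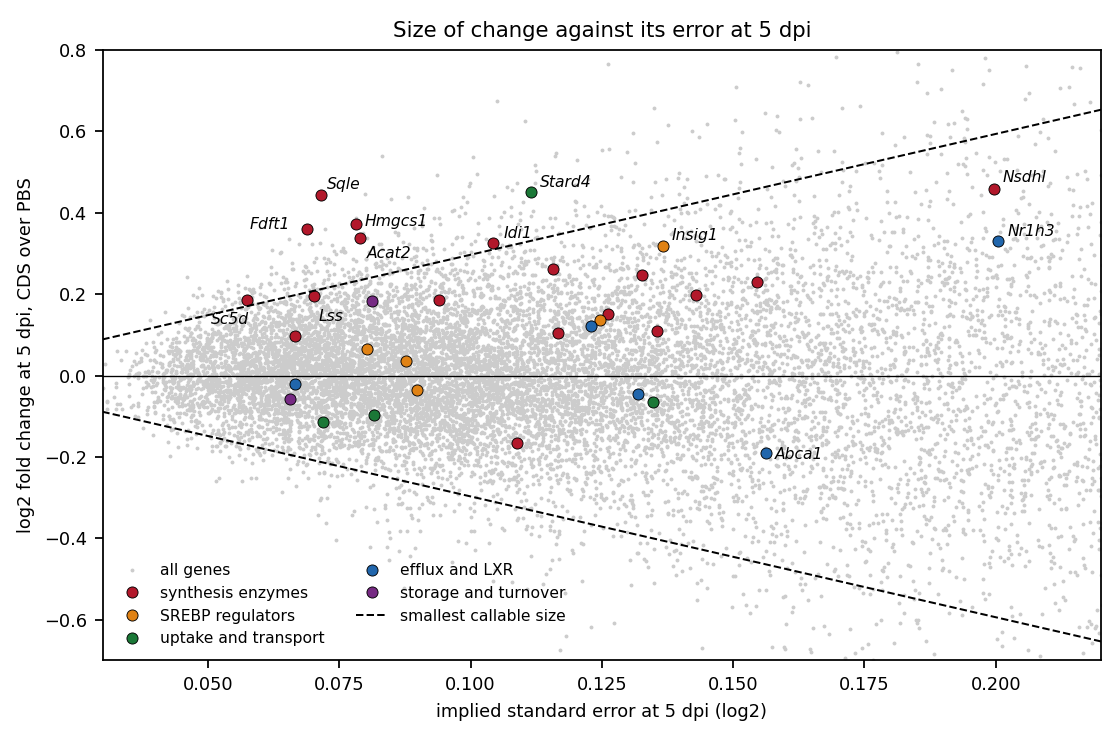
Log2 fold change at 5 dpi against its implied SE for all genes within the plotted range (grey) and for the cholesterol genes coloured by role; the dashed lines mark the smallest size that could be called, 2.97 times the SE. Called genes lie above the upper line, with Sqle, Fdft1, Hmgcs1, Acat2 and Stard4 farthest from it, and Nsdhl and Nr1h3 lie to the right with implied SEs of 0.20.

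Of the 5 SREBP regulators 0 were called at 5 dpi, and 1 had an unadjusted p under 0.05. With 5.92% of all genes called, a count of 0 among 5 is near the background. Srebf2, which encodes SREBP-2, stood at 0.14 with a 95% interval of -0.11 to 0.38 in the authors' deposited table (q = 0.603). Srebf1, whose product favours fatty acid genes, stood at 0.06 (-0.09 to 0.22), and the escort Scap at 0.04 (-0.14 to 0.21), in the authors' deposited table. The intervals of Srebf1 and Scap lie below the value of Hmgcs1, so a change of that size in their mRNA is outside them. These values are of mRNA, whereas SREBP-2 is controlled mainly by cutting of its protein, which was not measured here. The pair of INSIG genes had unlike values: Insig1, itself a target of SREBP-2, stood at 0.32 with a 95% interval of 0.05 to 0.59 (unadjusted p = 0.02, q = 0.16), and Insig2 at -0.04 with an interval of -0.21 to 0.14 (q = 0.886), both in the authors' deposited table. The difference between the pair was not tested.

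Uptake and intracellular transport held 1 called gene. Stard4, a soluble carrier that moves sterol between membranes and a known SREBP-2 target, rose by 0.45 with an implied SE of 0.11, or 36.8% (chromosome 18, 33199355 to 33213862, minus strand; q = 0.00256, the authors' deposited table). Its value was the highest among the 7 called genes. The lysosomal proteins that release endocytosed cholesterol were not called, with Npc1 at -0.10 (95% interval -0.26 to 0.06) and Npc2 at -0.07 (-0.33 to 0.20) in the authors' deposited table. Mylip stood at -0.11 with an interval of -0.26 to 0.03 in the authors' deposited table (q = 0.396).

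The efflux and liver X receptor genes had 0 of 5 called at 5 dpi, and 0 of 5 had an unadjusted p under 0.05. Abca1, the pump that loads lipid-poor apolipoprotein, stood at -0.19 with a wide interval of -0.50 to 0.12 in the authors' deposited table (q = 0.552). Abcg1 stood at -0.02 (-0.15 to 0.11) and Abcg4, a close relative known from brain, at -0.05 (-0.30 to 0.21) in the authors' deposited table. The interval of Abcg1 is narrow enough to leave out a rise of the size seen in Sqle or Fdft1. The receptors themselves, Nr1h2 and Nr1h3, stood at 0.12 and 0.33 in the authors' deposited table (q = 0.644 and 0.373), the second with an implied SE of 0.20. The median of the 5 genes was -0.02, against 0.21 for the synthesis enzymes and 0.06 for the 5 SREBP regulators. The 2 genes of storage and turnover were not called either. Soat1, which esterifies cholesterol, stood at -0.06 (95% interval -0.19 to 0.07), and Cyp46a1, the neuronal enzyme that makes the 24-hydroxy sterol that leaves the brain, at 0.18 (0.02 to 0.34, unadjusted p = 0.0248, q = 0.183), in the authors' deposited table. Outside synthesis, 1 of 16 genes was called and 8 of 16 had a value above 0. Over all genes 5.92% were called and 9162 of 20375 had a value above 0. These counts, and the 0 of 5 above, are therefore near the background. These medians and counts are descriptions, and the difference between roles was not tested.

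**Figure D4:**
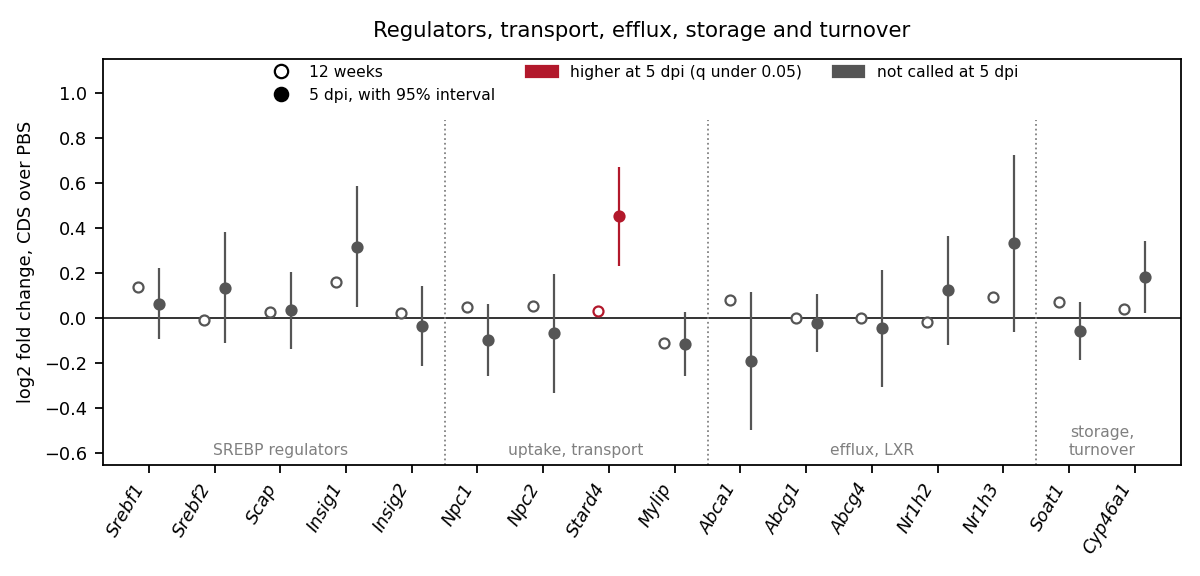
Log2 fold change of CDS over PBS for regulators, transport, efflux, storage and turnover genes, with open points for 12 weeks and filled points for 5 dpi; bars are 95% intervals from the implied SE at 5 dpi. Stard4 is the called gene, at 0.03 at 12 weeks and 0.45 at 5 dpi, while the intervals of Srebf2, Scap, Abca1, Abcg1 and Abcg4 at 5 dpi include 0.

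Genes outside the 35 that act beside them were read in the same way at 5 dpi. The site proteases that cut SREBP, Mbtps1 and Mbtps2, both stood at -0.03 in the authors' deposited table. Clu, a lipoprotein component made by astrocytes, rose by 0.40, while Vldlr, a lipoprotein receptor that also binds reelin, fell by 0.21 (q = 0.0101 and 0.00903, the authors' deposited table). Apoe, the main lipoprotein of the brain, stood at -0.04 with a 95% interval of -0.26 to 0.17 in the authors' deposited table.

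Of 13 further genes of sterol transport and oxysterol metabolism, 0 were called in the authors' deposited table, 1 had an unadjusted p under 0.05 and the median was 0.03. A count of 0 among 13 is near the 5.92% called over all genes. Of 15 fatty acid synthesis genes, 2 rose, 1 fell and 12 were not called; their median was 0.09. Fads2, a desaturase of polyunsaturated fatty acids, rose by 0.31, and Thrsp, a lipogenic factor, by 0.48, while Mlxipl, a glucose-sensing transcription factor also called ChREBP, fell by 1.68 (q = 8.49e-05, 0.00366 and 3.04e-07, the authors' deposited table). Fasn, Acaca and Scd1, core enzymes of fatty acid synthesis, stood at 0.15, 0.04 and 0.11 in the authors' deposited table, and were not called.

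Cell type markers moved at the same time. In bulk tissue, fewer cells of a type and less RNA per cell cannot be told apart. At 5 dpi 12 of 12 microglia markers fell, with values from -2.78 to -0.50 in the authors' deposited table, and 8 of 8 oligodendrocyte precursor markers fell, from -4.53 to -1.08. Of 9 reactive astrocyte markers 7 rose, and the median was 0.98. Markers of myelinating oligodendrocytes, cells that make much cholesterol, had 0 of 12 called, 12 of 12 above 0, 6 with an unadjusted p under 0.05 and a median of 0.48 (0.18 to 0.74), in the authors' deposited table. Of 8 general astrocyte markers 0 were called, 2 had an unadjusted p under 0.05 and the median was 0.00. Infiltrating leukocyte markers rose in 3 of 5, fibroblast markers in 4 of 7 and mural cell markers in 2 of 7, while 0 of 7 endothelial markers were called and 2 had an unadjusted p under 0.05. Of 6 excitatory neuron markers 1 rose (median 0.05), and of 6 inhibitory neuron markers 1 fell (median 0.04). Over all genes 2.75% were called higher and 3.18% lower, so the marker counts of 0 are near the background. The part of these shifts in the rise of the cholesterol genes was not tested.

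At 12 weeks 0 of the 34 cholesterol genes were called. All 34 were among the 20103 of 20375 genes tied at the highest q in the authors' deposited table, so their unadjusted p is known only to be at least 0.0134. Their values ran from -0.15 for Dhcr7 to 0.16 for Insig1, with a median of 0.04, and 25 of 34 were above 0. The median of the synthesis enzymes was 0.04 at 12 weeks, against 0.21 at 5 dpi. For the efflux and receptor genes it was 0.00 at 12 weeks, against -0.02 at 5 dpi.

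Role by role the values at 12 weeks were small. Among the first synthesis steps Fdps was highest, at 0.10 at 12 weeks (95% interval -0.17 to 0.37 with the SE of 5 dpi), against 0.11 at 5 dpi. Mvk and Mvd stood at 0.07 and 0.08 at 12 weeks, against 0.26 and 0.25 at 5 dpi, and Pmvk at -0.01, against 0.10, in the authors' deposited tables. Of the later enzymes, Msmo1 stood at 0.10 and Hsd17b7 at 0.09 at 12 weeks, and Lss and Ebp both at -0.01. Nsdhl and Dhcr7, with wide intervals at 5 dpi, stood at -0.04 and -0.15 at 12 weeks, against 0.46 and 0.23 at 5 dpi. With the SE of 5 dpi assumed at 12 weeks, their differences were -0.50 (95% interval -1.05 to 0.06) and -0.38 (-0.81 to 0.05). Neither passed the z test of the difference (adjusted p = 0.743 and 0.749). Srebf1 stood at 0.14 at 12 weeks, against 0.06 at 5 dpi, and was the one SREBP regulator whose value was larger in size at 12 weeks. Insig1 had the highest value of the 34 genes at 12 weeks, 0.16, with an interval of -0.11 to 0.43. Mylip stood at -0.11 at both times in the authors' deposited tables. Abca1 stood at 0.08 at 12 weeks, against -0.19 at 5 dpi, a difference of 0.27 with an interval of -0.16 to 0.70 that did not pass (adjusted p = 0.872). Npc1, Npc2, Ggps1 and Soat1 likewise stood between 0.05 and 0.07 at 12 weeks and below 0 at 5 dpi, none of them called at either time.

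Each called gene had a smaller value at 12 weeks than at 5 dpi. Sqle stood at 0.04 at 12 weeks, against 0.44 at 5 dpi, and Fdft1 at 0.08, against 0.36, in the authors' deposited tables. Stard4 stood at 0.03 at 12 weeks, against 0.45 at 5 dpi, and Idi1 at -0.07, against 0.33. A drop was the rule among called genes: 98.4% of the 560 genes called higher at 5 dpi had a lower value at 12 weeks. Of the 34 genes 32 were smaller in size at 12 weeks, as were 99% of the 1207 genes called in either direction at 5 dpi and 14348 of all 20375 genes. Across the 34 genes, Spearman's rho between the values at 12 weeks and at 5 dpi was -0.0032, a description over genes that share libraries at each time.

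The difference between times was tested for all genes, with the implied SE of 5 dpi standing in for that of 12 weeks in genes with no recovered value. Sqle was the 1 cholesterol gene of 34 that passed: its log2 fold change was 0.40 lower at 12 weeks, with a 95% interval of -0.60 to -0.21 (z test on the deposited values, adjusted p = 0.0227 over all genes). Over all genes the test called 0.0834% lower and 0.348% higher at 12 weeks. The differences for Hmgcs1 (-0.36), Fdft1 (-0.28), Stard4 (-0.42), Idi1 (-0.40), Acat2 (-0.29) and Sc5d (-0.18) had intervals below 0 but did not pass (adjusted p from 0.135 to 0.559). With the 12-week SE taken as 1.5 times larger, Sqle did not pass (adjusted p = 0.461). A gene needed a log2 fold change of at least 3.92 times its SE to be called at 12 weeks. With the SE of 5 dpi, 5 of the 7 genes called at 5 dpi would have been called at 12 weeks had their values stayed the same; the limit was 0.28 for Sqle, 0.27 for Fdft1 and 0.44 for Stard4.

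Markers at 12 weeks were closer to 0 than at 5 dpi in part. Of 12 microglia markers 0 were called at 12 weeks, but 12 of 12 were below 0, with a median of -0.38, against -1.75 at 5 dpi. For oligodendrocyte precursors, 8 of 8 markers were still lower, with a median of -0.88, against -2.43. Myelin markers had 0 of 12 called and a median of 0.44 at 12 weeks, against 0.48 at 5 dpi. The median of the synthesis enzymes over the same times was 0.04 at 12 weeks, against 0.21 at 5 dpi. Whether marker and enzyme values changed together was not tested. Of 9 reactive astrocyte markers 0 were called at 12 weeks, with a median of 0.24, against 0.98 at 5 dpi, in the authors' deposited tables. Over all genes 0.191% were called at 12 weeks, so these counts of 0 are near the background.

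Some of the genes overlap others on the genome, and the strand setting used in counting is not given in the sources used here. Other genes in the tables overlap 9 of the 34, and 0 of those overlapping genes were called. Among the called genes this concerns Fdft1, which shares 774 bases with Ctsb, the lysosomal protease cathepsin B, on the opposite strand. Ctsb stood at 0.14 at 5 dpi and was not called (q = 0.543, the authors' deposited table). No listed gene overlaps Sqle, Hmgcs1, Acat2, Idi1, Sc5d or Stard4.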

How the data were processed

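The authors deposited 2 comparison tables of RNA-seq from 20 samples, one for each time. Per the file headers they hold a log2 fold change and a q-value; the submitters name the contrast CDS versus PBS. STAR, featureCounts, DESeq2 and the build GRCm38.p5 are named in the submitters' processing notes; versions, strand setting and filters were not given in the sources used. Libraries were stranded and made after ribosomal RNA removal, per the labels' protocols. Depth per sample is unknown, and the sample number limits the precision.

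No model was refitted, and calls used the deposited q-value. The q-values were taken to be Benjamini-Hochberg values over 20375 genes, so that p was q times rank over that number; ties left p at 5 dpi uncertain by at most 1.04-fold. The implied SE was the log2 fold change over the z of p. At 12 weeks p was recovered for 272 genes, whose SE had a median of 0.994 times the one at 5 dpi (quartiles 0.974 and 1.01). Those genes had the smallest p at 12 weeks, and none of the 34 was among them. Whether the ratio holds for other genes is not known. Genes without a recovered value took the SE of 5 dpi, unless their tied q required a larger one, which applied to 0 of the 34. The difference between times was a two-sided z test with Benjamini-Hochberg adjustment over all genes. It was tried on simulated data in which each gene had the same SE at both times. The simulation therefore did not test that assumption. Intervals are 1.96 SE to each side.

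Positions came from GENCODE M21 (GRCm38) and promoters from RefSeq, found for 28 of the 35 genes. Python 3.11.15, pandas 2.3.3 and scipy 1.17.1 were used. The genes, roles, pathway and marker lists were chosen with earlier results of these data known. Named in full were genes called at either time, those with the largest values or ratios to the SE in each role, those nearest the threshold and up to 4 called genes of each pathway list; the other genes were picked with their values in view. Some pathway genes and the counts of their lists are not reported here. Alternatives tried were other q thresholds, minimum folds, Bonferroni adjustment, centring, and a larger SE.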

Additional observations from a re-analysis of the deposited data

Results flagged for a closer look

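Sqle, which encodes squalene epoxidase, is given here because its effect differed between times by a test of the difference itself. Its log2 fold change of CDS over PBS was 0.04 at 12 weeks, against 0.44 at 5 dpi in the authors' deposited tables. The difference was -0.40 (z test over all genes, adjusted p = 0.0227), with the SE of 12 weeks assumed equal to that of 5 dpi.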

How the results depend on the processing

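The count of 7 cholesterol genes called at 5 dpi was 5 at a q under 0.01, 8 at a q under 0.1, where Lss joined, and 6 with a fold of at least 1.2. It was 3 with Bonferroni adjustment over all genes (Sqle, Fdft1 and Hmgcs1) and 0 with a fold of at least 1.5, since all the changes were smaller than that. The count at 12 weeks was 0 in all 5 alternatives. None of them could have called a gene, because all 34 were tied at the highest q. The count of genes that differed between times was 1 at an adjusted p under 0.1 and 0 with a 12-week SE 1.5 times larger. The test could not be limited to genes with an SE recovered at both times, because none of the 34 had one. Subtracting the median of all genes (-0.002 at 12 weeks and -0.02 at 5 dpi), or that of genes with a small SE, moved each role's median by less than the median SE of its genes and turned the sign of no called gene. None of the 34 was in a marker list. No paired analysis was possible because the tables hold no values per sample, and for the same reason no sample could be left out. Without counts, the limit set by depth cannot be given, and the implied SE stands in for it.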
